A study of Mus musculus with 40 samples.

Results

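Pim kinases and SOCS proteins are the products of genes that cytokine signals switch on through JAK kinases and STAT transcription factors. Their mRNA was followed here in mouse follicular B cells with and without Ikaros. The 7 genes were Pim1, Pim2 and Pim3, and the SOCS family members Cish, Socs1, Socs2 and Socs3. They were taken by gene name from the 24732 genes in the expression files, all 7 were found, and 0 of them carried a mark for an overlapping or duplicated gene model.

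The kinases PIM1, PIM2 and PIM3 are serine/threonine kinases that need no activating phosphorylation and are regulated mainly through their amount. They support survival, cell cycle entry and cap-dependent translation in lymphocytes. SOCS proteins are induced by the same signals and close a negative loop: they bind cytokine receptors or JAK kinases through an SH2 domain and recruit an elongin-cullin ubiquitin ligase through the SOCS box. In B cells, antigen, cytokines, interferons and Toll-like receptor ligands are all known to change the amounts of these mRNAs.

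RNA-seq was available for 28 libraries of FACS-sorted follicular B cells from C57BL/6 mice, all of which carry MD4, a B cell receptor transgene against hen egg lysozyme (HEL). Deletion of Ikzf1, the gene for the zinc finger factor Ikaros, relied on Cd23-cre, a Cre driven from the Cd23 gene of maturing B cells. Cells stimulated in vitro with CpG, a ligand of Tlr9, for 1 day were Cd23-cre Ikzf1(fl/-) (4 libraries, called Ikaros-deficient) or Cd23-cre Ikzf1(fl/+) (4 control libraries). The naive set held 2 libraries of Cd23-cre Ikzf1(fl/-), with Cd23-cre Ikzf1(fl/+) (2 libraries) as their control. Cells from mice given HEL intravenously 1 day earlier were Cd23-cre Ikzf1(fl/fl) (5 libraries, Ikaros-deficient) or Ikzf1(fl/fl) without Cre (5 control libraries), so after HEL an effect of Cre and one of losing Ikaros cannot be told apart. Anergic cells came from MD4 mice with the second transgene ML5, which supplies soluble HEL lifelong, and were Ikzf1(fl/fl), Ikzf1(fl/+) or Cd23-Cre Ikzf1(fl/+) (1 library each, replicates 1, 2 and 3). The naive cells set against the HEL-exposed and anergic cells were Ikzf1(fl/+) without Cre (2 libraries) and Cd23-cre Ikzf1(fl/+) (1 library).

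The leading digits of the library numbers in the labels, 36, 49 or 57, are used here as a library series. The HEL-exposed, the anergic and the last 3 naive libraries were in series 57, the other 4 naive libraries in series 36 and the CpG libraries in series 49. CpG stimulation against naive cells is thus confounded with library series, with culture and with any difference between them. Values are TPM, a level per transcript length and library total, as deposited, and the recovered totals were 12126675 to 25424303 reads per library. Log2 differences are on the log2(TPM + 1) scale with the standard error of the limma fit, TPM means are given with standard deviations, and a gene was called at a Benjamini-Hochberg adjusted p under 0.05 over all genes tested. Nothing in the labels states that replicates are separate mice, so the p-values reflect the spread between these libraries, which may be technical.

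Ikzf1 mRNA was lower in every Ikaros-deficient library than in every control of the same experiment: 60.3 to 79.3 against 195 to 261 TPM after HEL, 31.7 to 39.5 against 135 to 172 TPM after CpG, and 57.3 and 65.3 against 120.2 and 136 TPM in naive cells. Summed over 8 genes, B cell markers were at 11967 to 13456 TPM in Ikaros-deficient and 14332 to 15371 TPM in control HEL-exposed libraries, without overlap, and at 1993 to 2776 and 2628 to 3618 TPM after CpG. In anergic and naive libraries they were at 14227 to 17342 TPM. Of these 8 genes 1 was called higher and 3 lower in Ikaros-deficient cells after HEL, and 0 higher and 5 lower after CpG. Over all genes tested, 12.9% were called higher and 24.1% lower after HEL, and 9.14% and 5.8% after CpG. After HEL, markers of other cells differed between the genotypes. The 6 myeloid markers summed to 28.2 to 40.5 TPM in Ikaros-deficient and 9.91 to 15.9 TPM in control libraries, the 6 dendritic cell markers to 16.5 to 23.8 and 4.35 to 7.58 TPM, and the 4 plasma cell markers to 123 to 158 and 72.3 to 94.3 TPM, with 0 of these genes at 0 in either group. The 5 NK cell markers ran the other way, at 4.77 to 8.95 TPM in Ikaros-deficient and 9.80 to 12.9 TPM in control libraries, and Ncr1 and Gzma were at 0 throughout both. T cell and neutrophil markers stayed at or below 4.46 TPM in all 10 of these libraries. Of the tested markers, 2 of 4 myeloid, 4 of 4 dendritic cell, 2 of 2 plasma cell and 1 of 1 T cell genes were called higher and 1 of 1 NK cell genes lower, against 12.9% of all genes called higher and 24.1% lower. Whether other cells or the B cells themselves held these marker mRNAs was not tested, nor was their part in the results after HEL. After CpG, dendritic cell markers summed to 29.1 to 38.4 TPM in Ikaros-deficient and 12.4 to 27.7 TPM in control libraries, and in the naive cells of series 36 to 28.1 and 42.7 against 9.02 and 14.8 TPM, and their part in those results was not tested either.

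Control replicate 5 after HEL stood apart for these genes. It had the lowest Pim2, Cish, Socs1, Socs2 and Socs3 and the highest Pim1 and Pim3 of the 5 control libraries, and the lowest sum of 15 interferon-stimulated genes, at 459 TPM against 1028 to 1724 TPM in the other 4. Results that rest on it are given with and without it.

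Promoter sequences of 6 of the 7 genes were matched by symbol in RefSeq (build GRCm38.p6), as windows from 250 bases before to 50 bases after an annotated start. They were searched on both strands for TTCNNNGAA, the palindromic core that STAT5 and STAT3 bind. Of these genes, Cish and Socs3 held it, and both promoters are shown for that reason, 5′ to 3′ on the strand of the gene, with the matches in capitals. The Cish window is chr9:107296409-107296708 on the plus strand, and the Socs3 window is chr11:117969317-117969616 on the minus strand.
Cish: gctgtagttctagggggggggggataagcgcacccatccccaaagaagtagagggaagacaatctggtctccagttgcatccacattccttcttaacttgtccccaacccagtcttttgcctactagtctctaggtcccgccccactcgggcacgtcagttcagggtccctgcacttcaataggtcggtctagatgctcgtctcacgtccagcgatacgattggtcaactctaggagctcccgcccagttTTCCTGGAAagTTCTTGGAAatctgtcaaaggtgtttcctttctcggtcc
Socs3: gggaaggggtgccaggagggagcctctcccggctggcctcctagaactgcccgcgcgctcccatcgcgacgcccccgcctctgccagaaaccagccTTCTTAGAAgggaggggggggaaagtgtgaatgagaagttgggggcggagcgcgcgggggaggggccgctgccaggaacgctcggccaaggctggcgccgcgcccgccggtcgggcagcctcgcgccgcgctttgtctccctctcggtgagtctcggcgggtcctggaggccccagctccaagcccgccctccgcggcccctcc

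The Cish window held 2 matches, which begin at the annotated start base and 11 bases after it. In Socs3 the 1 match begins at position -154 from the start. The annotated Socs3 gene spans chr11:117966079-117970336, so this window and its match lie inside the gene and not at its 5′ end. Of 32851 promoter windows of this length in the table, 8.30% held the motif. Neither window of Pim1 held it, nor did those of Pim2, Pim3 and Socs1. The Ikaros-type core TGGGAA, which 25.6% of windows held, was found in that of Socs1, beginning at position -169 from the start, and in no other window of these genes. CGGGAA, another Ikaros-type core, was in 12.9% of windows and in none of theirs, and the STAT core with 1 more base between its arms, which STAT6 prefers, was in 6.95% and in none of theirs. The motifs do not overlap one another in these windows. A match is a description of the sequence and not a binding site.

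**Figure D1:**
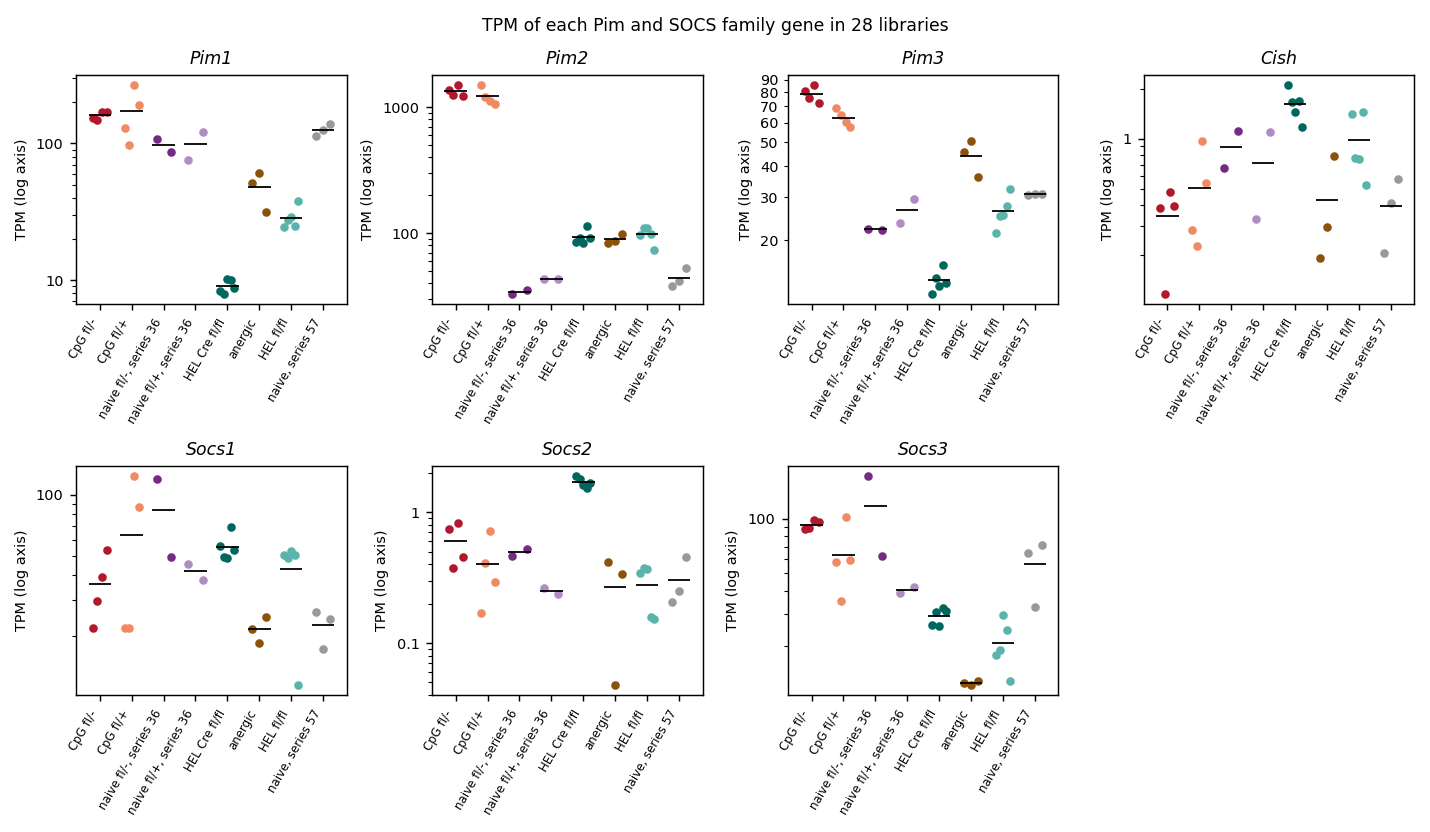
TPM on a log axis for each of the 7 genes, 1 point per library and a bar at the group mean, in 8 groups named by treatment, Ikzf1 genotype and library series. Pim1 is lowest in the 5 Ikaros-deficient HEL-exposed libraries (7.96 to 10.2 TPM), where Socs2 is highest (1.52 to 1.88 TPM), and Pim2 is at 1056 to 1499.6 TPM in the 8 CpG libraries.

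The 7 genes were present at very different levels. Over the 28 libraries the mean TPM was highest for Pim2, at 419, and Pim1 followed at 86.8. Cish and Socs2 were close to the limit of detection, with Socs2 between 1 and 60 reads per library and Cish between 2 and 53. Pim1 ran from 7.96 to 267 TPM over all libraries and Pim2 from 33.1 to 1499.6 TPM.

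The first comparison asks what loss of Ikaros does to these genes in cells that met HEL in the mouse. Pim1 and Pim3 fell, Socs2, Socs3 and Cish rose, and Pim2 and Socs1 did not pass the test. All 7 genes entered the test and 5 were called, against 36.9% of the 10258 genes tested. The 3 higher calls stand against 12.9% called higher over all genes, and the 2 lower calls against 24.1%, that is 1321 and 2469 genes, or 1768 and 1708 after median-ratio scaling, under which the same 5 members were called in the same directions. Socs2 entered the test through the Ikaros-deficient libraries alone, and Cish would have done so too, so these genes carry no weight in that count.

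Pim1, the best known member of the kinase family and a classic STAT-induced gene, was at 8.39, 7.96, 10.2, 9.999 and 8.78 TPM in Ikaros-deficient HEL-exposed cells, against 24.6, 27.3, 29.0, 24.8 and 37.8 TPM in control HEL-exposed cells. The groups did not overlap, and the means of 9.06 ± 0.98 and 28.7 ± 5.4 TPM (SD, n = 5 each) differed 3.17-fold. The log2 difference was -1.55 ± 0.11 (adjusted p = 3.61e-07), and -1.45 ± 0.09 without control replicate 5. In bulk RNA of a sorted population, fewer cells of a type and less RNA per cell cannot be told apart.

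Pim3 moved the same way by less. Its values were 12.2, 14.1, 13.1, 16.0 and 13.5 TPM without Ikaros, against 21.5, 25.2, 25.4, 27.6 and 32.4 TPM in controls. These groups did not overlap either, and Pim3 fell by 0.89 ± 0.10 on the log2 scale (adjusted p = 1.91e-05).

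Pim2, a family member known for growth and survival of lymphocytes, did not pass the test. It was at 84.7, 91.5, 83.2, 114 and 91.2 TPM in Ikaros-deficient cells and at 97.1, 111, 110.0, 98.8 and 74.2 TPM in controls. The ranges overlapped, and the log2 difference was -0.07 ± 0.11 (adjusted p = 0.636). Within the kinase family, Pim1 was thus below Pim3 in all 5 Ikaros-deficient libraries, while the 2 genes overlapped in the controls, with Pim3 at 26.4 ± 4.0 and Pim1 at 28.7 ± 5.4 TPM.

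Socs2, an inhibitor best known from growth hormone signalling, was at 1.88, 1.80, 1.61, 1.52 and 1.68 TPM in Ikaros-deficient HEL-exposed cells, against 0.341, 0.377, 0.370, 0.158 and 0.153 TPM in control HEL-exposed cells. That corresponds to 41 to 60 reads per Ikaros-deficient library and 4 to 11 reads per control library. The groups did not overlap and the means, 1.70 ± 0.14 and 0.280 ± 0.11 TPM, differed 6.07-fold. On the log2(TPM + 1) scale, which understates changes at such low levels, the difference was 1.08 ± 0.10 (adjusted p = 3.34e-06).

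Socs3, which binds JAK kinases together with the shared receptor of the interleukin-6 family, was at 25.9, 30.5, 25.7, 32.2 and 31.2 TPM in Ikaros-deficient cells, against 17.7, 19.0, 29.5, 24.3 and 12.7 TPM in controls. The highest control library lay inside the Ikaros-deficient range. Socs3 rose by 0.52 ± 0.17 on the log2 scale (adjusted p = 0.0281), and by 0.37 ± 0.13 (adjusted p = 0.0454) without control replicate 5. The call was lost without the TPM filter (adjusted p = 0.0722) and when any of 5 other libraries was left out, replicates 2, 4 and 5 of the Ikaros-deficient group and 1 and 2 of the control group, at adjusted p = 0.0537 to 0.0603.

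Cish encodes a SOCS protein that competes with STAT5 at receptors and is a STAT5 target in many cells. It was at 2.10, 1.66, 1.46, 1.68 and 1.18 TPM in Ikaros-deficient cells, against 1.41, 0.770, 0.756, 1.46 and 0.526 TPM in controls, from 11 to 53 reads per library. The groups overlapped, and the log2 difference was 0.42 ± 0.15 (adjusted p = 0.042). This call was lost without any of 7 of the 10 libraries, and without control replicate 5 the difference was 0.33 ± 0.14 (adjusted p = 0.0989).

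Socs1, which inhibits JAK kinases directly and is strongly induced by interferons, was at 55.8, 48.98, 48.7, 69.5 and 53.4 TPM in Ikaros-deficient cells, against 50.4, 48.8, 53.0, 50.3 and 11.4 TPM in controls. Control replicate 5 was far below all others, and the other 4 controls lay inside the range of the Ikaros-deficient libraries. The log2 difference of 0.52 ± 0.33 (adjusted p = 0.24) became 0.11 ± 0.09 (adjusted p = 0.381) without that library.

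After CpG, the second stimulus tested with and without Ikaros, 5 of the 7 genes entered the test and 1 was called, Pim3, against 14.9% of the 10386 genes tested, 9.14% called higher and 5.8% lower. Cish and Socs2 were under the TPM filter. Pim3 was at 80.7, 75.5, 85.6 and 72.0 TPM in Ikaros-deficient CpG-stimulated cells, against 69.3, 64.3, 60.7 and 57.7 TPM in control CpG-stimulated cells. The groups did not overlap, and Pim3 rose by 0.31 ± 0.08 on the log2 scale (adjusted p = 0.0352). The call was lost without any of 6 of the 8 libraries, replicates 1, 2 and 3 of the Ikaros-deficient group and 2, 3 and 4 of the control group, at log2 differences of 0.27 to 0.33. Within the first 4 library numbers (2 libraries against 2) the difference was 0.22 ± 0.13 (adjusted p = 0.461), and within the last 4 it was 0.40 ± 0.10 (adjusted p = 0.0339).

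Pim2 was at 1376, 1239, 1499.6 and 1234 TPM in Ikaros-deficient CpG-stimulated cells and at 1499, 1203, 1128 and 1056 TPM in controls. The ranges overlapped, and the log2 difference was 0.14 ± 0.12 (adjusted p = 0.464). Pim1 was at 153, 148, 171 and 171 TPM without Ikaros and at 129.8, 97.1, 267 and 192 TPM in controls. The control libraries lay on both sides of the Ikaros-deficient ones, with a log2 difference of 0.01 ± 0.27 (adjusted p = 0.988), made of 0.42 ± 0.17 within the first 4 library numbers and -0.41 ± 0.15 within the last 4, neither of which passed.

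Socs3 was at 88.4, 89.3, 98.7 and 95.6 TPM in Ikaros-deficient CpG-stimulated cells, against 57.5, 35.3, 103 and 59.0 TPM in controls. Control replicate 3 was above all 4 Ikaros-deficient libraries and the other 3 controls were below them. The log2 difference was 0.64 ± 0.26 (adjusted p = 0.132), and without control replicate 3 it was 0.90 ± 0.17 (adjusted p = 0.015).

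Socs1 in CpG-stimulated cells was highest in replicates 3 and 4 of both genotypes. It was at 21.9, 29.7, 39.2 and 53.3 TPM in Ikaros-deficient cells and at 21.9, 21.8, 123 and 86.7 TPM in controls, where replicates 1 and 2 of each genotype hold the first 4 library numbers of the series and replicates 3 and 4 the last 4. Over all 8 libraries the log2 difference was -0.47 ± 0.57 (adjusted p = 0.615). It was 0.21 ± 0.18 (adjusted p = 0.637) within the first 4 numbers and -1.16 ± 0.20 (adjusted p = 0.00995) within the last 4, both fits being of 2 libraries against 2 and chosen after the values were seen.

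Interferon-stimulated genes were highest in the same libraries. Their 15 genes summed to 124, 160, 797 and 1631 TPM in Ikaros-deficient CpG-stimulated cells and to 110, 795, 3857 and 2793 TPM in controls, in the same order of replicates. Control replicate 2 was an exception, with a sum of 795 TPM and Socs1 at 21.8 TPM. Neutrophil markers were at 0 in replicates 1 and 2 of both genotypes, and at 5.86 to 109 TPM in replicates 3 and 4. After HEL the sums were 863 to 1116 TPM in Ikaros-deficient cells and 459 to 1724 TPM in controls, the lowest being the control library with the lowest Socs1. Of the 15 genes, 0 were called after CpG, against 9.14% of all genes called higher and 5.8% lower. Limma and voom both gave 0 with an unadjusted p under 0.05 there. After HEL 1 rose, Gbp2, against 12.9% of all genes called higher and 24.1% lower. Gbp2 is marked as overlapping another gene model. The list had a median log2 difference of -1.63 after CpG and -0.09 after HEL, beside 0.02 and -0.08 for all genes tested. The part of interferon signalling or of neutrophils in the Socs1 values was not tested.

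**Figure D2:**
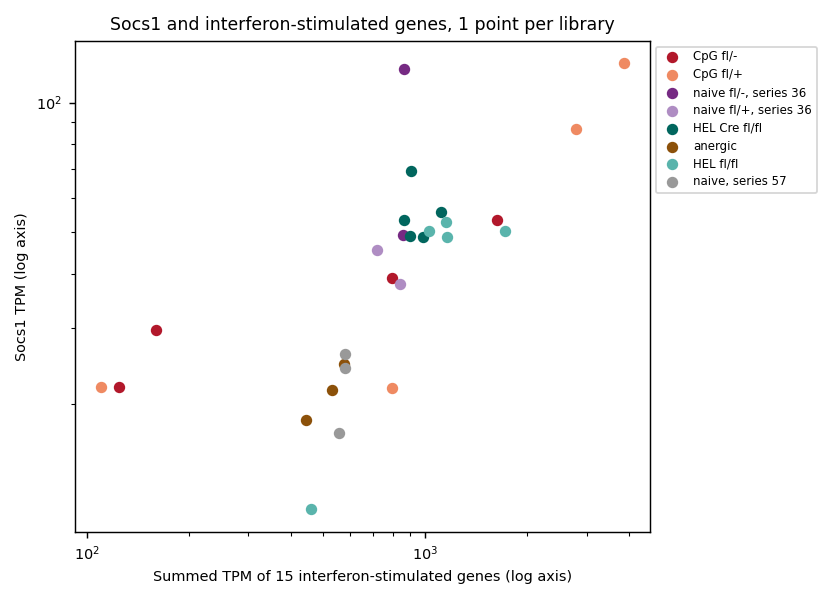
Socs1 TPM against the summed TPM of 15 interferon-stimulated genes, both on log axes, with 1 point per library coloured by group. The 2 control CpG libraries with the highest sums (2793 and 3857 TPM) have Socs1 at 86.7 and 123 TPM, the HEL control library at 459 TPM has Socs1 at 11.4 TPM, and 1 naive Ikaros-deficient library lies apart with Socs1 at 119 TPM and a sum of 862 TPM.

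In naive cells, with 2 libraries in each group, loss of Ikaros gave no call among the 6 genes tested, against 0.0199% of 10053 genes. Ikzf1 itself did not pass here (log2 difference -1.05 ± 0.17, adjusted p = 0.0859). The lack of calls thus does not show a lack of effects. Socs1 and Socs3 had an unadjusted p under 0.05 in limma, as did 2 of the genes with voom, which also gave 0 calls. Socs3 was at 172 and 62.8 TPM in Ikaros-deficient naive cells, against 39.2 and 42.3 TPM in control naive cells, and Socs1 was at 119 and 49.4 TPM, against 45.6 and 37.9 TPM. The groups did not overlap for either gene, and replicate 1 of the Ikaros-deficient group was far above the other 3 libraries in both. With 2 libraries in each group, unaffected genes often do not overlap either, so the lack of overlap carries little weight. The log2 differences in limma were 1.33 ± 0.38 for Socs3 (unadjusted p = 0.00773, adjusted p = 0.287) and 0.87 ± 0.35 for Socs1 (unadjusted p = 0.0363, adjusted p = 0.521). Neutrophil markers, at 15.7 and 53.5 TPM in the Ikaros-deficient libraries and 27.7 and 63.1 TPM in the controls, were lowest in that replicate.

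Pim1 was at 108 and 86.2 TPM in Ikaros-deficient naive cells and at 76.1 and 121 TPM in control naive cells, with a log2 difference of 0.01 ± 0.24 (adjusted p = 0.992). Pim2 was at 33.1 and 35.2 TPM against 43.3 and 43.1 TPM, and Pim3 at 22.2 and 22.1 TPM against 23.6 and 29.5 TPM. For Pim2 and Pim3 the groups of 2 libraries did not overlap, which carries little weight at that size. The log2 differences of -0.33 ± 0.17 and -0.24 ± 0.20 did not pass (adjusted p = 0.631 and 0.717). Cish, from 6 to 24 reads per library, had a log2 difference of 0.17 ± 0.30 (adjusted p = 0.869).

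The Ikaros effect itself was compared between CpG and HEL, as the log2 difference after CpG minus that after HEL. Of the 7 genes 3 were called, against 22.4% of 11050 genes, 15.2% higher and 7.19% lower, that is 1685 and 794 genes, or 1353 and 1063 after median-ratio scaling. Socs2, 1 of the 3, reached 1 TPM only in the Ikaros-deficient HEL-exposed libraries and was under the filter after CpG, so it carries no weight in that count. Pim1 had a higher effect after CpG by 1.56 ± 0.29 (adjusted p = 0.000911) and Pim3 by 1.20 ± 0.14 (adjusted p = 1.22e-05), while Socs2, at 0.600 ± 0.22 TPM in Ikaros-deficient and 0.399 ± 0.24 TPM in control cells after CpG, had a lower one by -0.88 ± 0.17 (adjusted p = 0.00109). For Pim3 the effects had opposite signs, a rise after CpG and a fall after HEL, and for Pim1 a fall after HEL was set against a value near 0. Socs3, with 0.64 after CpG and 0.52 after HEL, gave a difference of 0.12 ± 0.33 (adjusted p = 0.829), and Pim2 gave 0.21 ± 0.17 (adjusted p = 0.407). Cish (-0.56 ± 0.23, adjusted p = 0.0896) and Socs1 (-0.997 ± 0.69, adjusted p = 0.32) did not pass. The controls of the HEL cells are Ikzf1(fl/fl) without Cre, and those of the CpG cells are Cd23-cre Ikzf1(fl/+). The Ikaros-deficient genotypes, Ikzf1(fl/fl) and Ikzf1(fl/-), the library series, and exposure in the mouse or in vitro differ as well. None of these can be told apart from the stimulus in this difference.

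**Figure D3:**
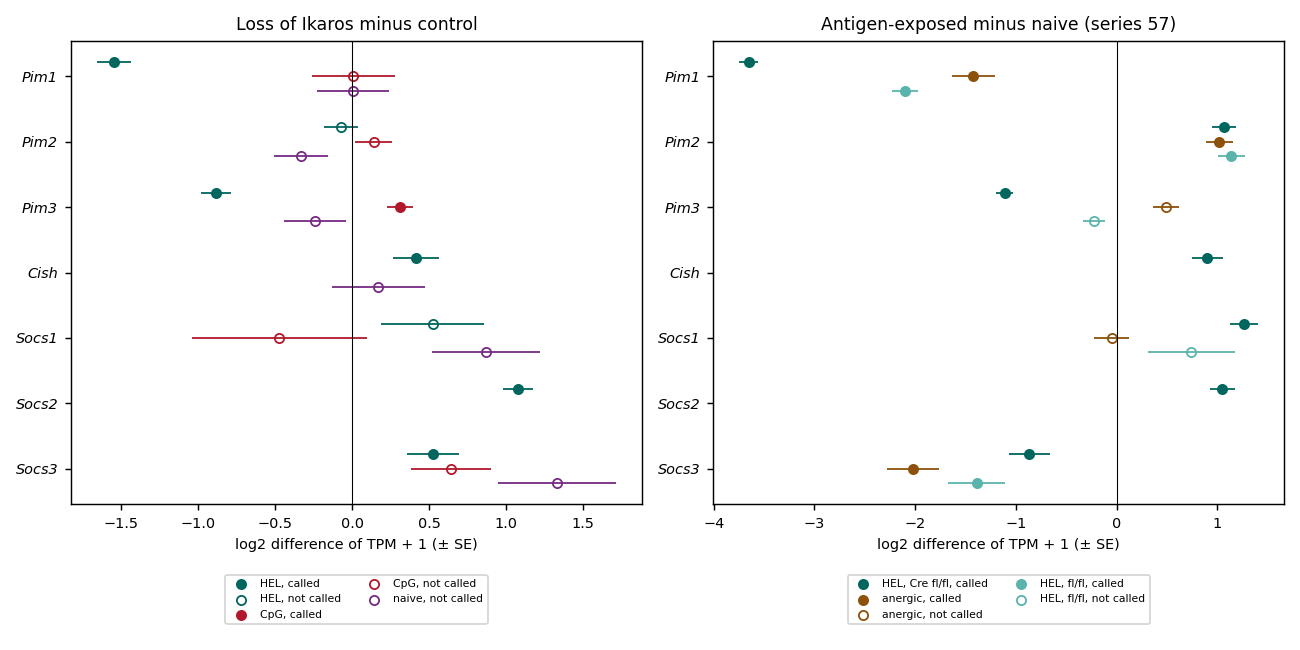
Log2 differences of TPM + 1 with standard errors for the 7 genes, filled where called and open where not. The left panel gives loss of Ikaros minus control after HEL, after CpG and in naive cells, with Pim1 at -1.55, 0.01 and 0.01, and the right panel gives 3 antigen-exposed groups minus the naive cells of series 57, with Pim1 at -3.65, -1.42 and -2.10.

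Exposure to antigen was read against the naive cells of series 57 in 3 groups that share these 3 naive libraries, so their results are not independent. None of these naive libraries was Ikaros-deficient, so HEL, loss of Ikaros and Cre cannot be told apart in the Ikaros-deficient HEL-exposed group. In control HEL-exposed cells 3 of the 5 genes tested were called, against 48.0% of 10448 genes, with Pim1 and Socs3 lower (38.1% of all genes) and Pim2 higher (9.92%). Over all genes 1036 were higher and 3979 lower, or 2214 and 2004 after median-ratio scaling, and the 3 members kept their calls. Anergic cells gave the same 3 calls in the same directions, against 7.37% of 10519 genes, 4.48% higher and 2.89% lower, that is 471 and 304 genes, or 410 and 442 after that scaling. In Ikaros-deficient HEL-exposed cells all 7 genes entered and all 7 were called, against 64.2% of 10538 genes, with 4 higher (15.4% of all genes) and 3 lower (48.8%). Of the 4, Cish and Socs2 entered through the Ikaros-deficient HEL-exposed libraries alone and carry no weight in that count. Over all genes 1619 were higher and 5142 lower, or 2963 and 2825 after median-ratio scaling. The scaling moved the median of all genes by 0.17 for the control HEL comparison and by 0.23 for the Ikaros-deficient one.

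Pim1 was at 7.96 to 10.2 TPM in Ikaros-deficient HEL-exposed cells, at 24.6 to 37.8 TPM in control HEL-exposed cells and at 50.9, 60.6 and 31.6 TPM in anergic cells, against 114, 124 and 139 TPM in naive cells. All 3 antigen-exposed groups lay below the naive one without overlap, by log2 differences of -3.65 ± 0.09 (adjusted p = 3.27e-09) in Ikaros-deficient HEL-exposed cells, -2.10 ± 0.13 (adjusted p = 3.65e-06) in control HEL-exposed cells and -1.42 ± 0.21 (adjusted p = 0.0067) in anergic cells. The means of Ikaros-deficient HEL-exposed and naive cells, 9.06 ± 0.98 and 126 ± 12 TPM (SD, n = 5 and 3), differed 13.9-fold.

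Pim2 went the opposite way in the same cells. It was at 83.1, 86.7 and 99.2 TPM in anergic cells, against 37.7, 41.6 and 52.5 TPM in naive cells, and the HEL-exposed libraries of both genotypes lay between 74.2 and 114 TPM. Pim2 rose on the log2 scale by 1.07 ± 0.12 in Ikaros-deficient HEL-exposed cells, 1.14 ± 0.14 in control HEL-exposed cells and 1.02 ± 0.14 in anergic cells (adjusted p = 2.21e-05, 0.000151 and 0.00393 in this order). Within each library of these 3 groups Pim2 was thus above Pim1, while in the 3 naive libraries Pim1 was above Pim2.

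Pim3 separated the antigen-exposed groups. It was at 45.6, 50.7 and 36.04 TPM in anergic cells, against 30.6, 30.9 and 30.8 TPM in naive cells. The groups did not overlap, and the log2 difference of 0.49 ± 0.13 did not pass (adjusted p = 0.0586). Anergic replicate 3, the library of Cd23-Cre Ikzf1(fl/+), was the lowest for Pim3 and for Pim1. Its Ikzf1 mRNA was at 179 TPM, against 304 and 319 TPM in anergic replicates 1 and 2. Without anergic replicate 3 the Pim3 difference was 0.63 ± 0.09 (adjusted p = 0.00781), and it was 0.43 ± 0.11 (adjusted p = 0.0426) with voom. In control HEL-exposed cells Pim3 did not pass (-0.23 ± 0.11, adjusted p = 0.106), and it was lower by -0.30 ± 0.08 (adjusted p = 0.0143) without control replicate 5. With that replicate kept, Pim3 differed by -0.045 ± 0.11 (adjusted p = 0.772) under median-ratio scaling. In Ikaros-deficient HEL-exposed cells it fell by 1.11 ± 0.08 (adjusted p = 1.81e-06).

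Socs3 was lowest in anergic cells, at 12.4, 12.1 and 12.7 TPM, against 65.2, 32.8 and 71.8 TPM in naive cells. It fell by 2.02 ± 0.26 on the log2 scale in anergic cells (adjusted p = 0.00322), by 1.39 ± 0.28 in control HEL-exposed cells (adjusted p = 0.00266) and by 0.87 ± 0.21 in Ikaros-deficient HEL-exposed cells (adjusted p = 0.00334). None of the 3 groups overlapped the naive libraries, of which replicate 2 without Cre was the lowest. Dendritic cell markers summed to 6.18 to 7.51 TPM in anergic and 10.9 to 22.01 TPM in naive cells. They summed to 4.35 to 7.58 TPM in control and 16.5 to 23.8 TPM in Ikaros-deficient HEL-exposed cells. The part of these markers in the Socs3 results was not tested.

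Socs1 in anergic cells, at 21.6, 18.4 and 24.8 TPM, overlapped the naive values of 26.1, 17.2 and 24.3 TPM (log2 difference -0.05 ± 0.17, adjusted p = 0.905). It rose by 1.27 ± 0.14 in Ikaros-deficient HEL-exposed cells (adjusted p = 2.28e-05). In control HEL-exposed cells the difference was 0.74 ± 0.43 (adjusted p = 0.175), and 1.15 ± 0.12 (adjusted p = 8.49e-05) without control replicate 5. Of the 15 interferon-stimulated genes, 10 were higher and 0 lower in control HEL-exposed against naive cells, against 9.92% and 38.1% of all genes. The list median was 1.26 beside -0.16 for all genes. In anergic cells 0 were higher and 4 lower of the 14 tested, against 4.48% and 2.89% of all genes, with a median of -0.69 beside 0.07.

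Cish and Socs2 entered the comparison with naive cells only for the Ikaros-deficient HEL-exposed group, through which they passed the filter. Cish was at 1.18 to 2.10 TPM in that group, against 0.208, 0.415 and 0.571 TPM in the naive cells, with a log2 difference of 0.90 ± 0.15 (adjusted p = 0.000335). Socs2 was at 1.52 to 1.88 TPM in that group, against 0.208, 0.249 and 0.457 TPM in the naive cells, with a difference of 1.05 ± 0.12 (adjusted p = 3.19e-05). In anergic cells, 3 to 15 reads of Cish and 1 to 8 reads of Socs2 were recovered per library, and neither gene was tested there.

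Anergic cells were also set against control HEL-exposed cells, that is, lasting against 1 day of antigen exposure. Here 3 of the 5 genes tested were called, against 42.2% of 10491 genes, 36.8% higher and 5.39% lower. That is 3860 and 565 genes, or 1073 and 1432 after median-ratio scaling, under which 2 members were called. Pim3 was higher in anergic cells by 0.72 ± 0.14 (adjusted p = 0.00373), without overlap between the groups, and by 0.46 ± 0.13 (adjusted p = 0.0278) after that scaling. Pim1 was higher by 0.68 ± 0.20 (adjusted p = 0.0197), with overlap, but by 0.43 ± 0.18 (adjusted p = 0.104) after that scaling, which moved the median of all genes by -0.24. The Pim1 call was also lost with voom, without the TPM filter and without anergic replicate 1 or 2, at adjusted p = 0.0527 to 0.0822. Socs3 was lower by -0.64 ± 0.21 (adjusted p = 0.0332), a call that was lost without any of the 3 anergic libraries, without HEL control replicate 2 or 4 and without the TPM filter, at adjusted p = 0.0525 to 0.0891. Pim2 gave -0.12 ± 0.13 (adjusted p = 0.467). Socs1 gave -0.79 ± 0.42 (adjusted p = 0.148), and -1.20 ± 0.11 (adjusted p = 0.000174) without HEL control replicate 5.

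CpG stimulation was read against the naive cells of series 36 for each genotype. In Ikaros-deficient cells 4 of 5 genes were called, against 76.1% of 10808 genes, 56.3% higher and 19.8% lower, that is 6083 and 2143 genes, or 4118 and 3843 after median-ratio scaling. In control cells 2 of 5 were called, against 67.6% of 10673 genes, 48.3% higher and 19.3% lower, that is 5158 and 2061 genes, or 3529 and 3381 after that scaling. Pim2 averaged 1337 ± 127 TPM in Ikaros-deficient CpG-stimulated cells and 34.1 ± 1.5 TPM in Ikaros-deficient naive cells (SD, n = 4 and 2), a 39.2-fold difference. In control cells the means were 1221 ± 194 TPM after CpG and 43.2 ± 0.17 TPM in naive cells, a 28.3-fold difference. The log2 differences of Pim2 were 5.25 ± 0.10 (adjusted p = 3.47e-08) and 4.78 ± 0.15 (adjusted p = 3.4e-06).

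Pim3 also rose after CpG, by 1.77 ± 0.10 (adjusted p = 1.98e-06) in Ikaros-deficient and 1.22 ± 0.13 (adjusted p = 0.000153) in control cells. Median-ratio scaling moved the median of all genes by -0.52 and -0.40 in these comparisons, and under it Pim3 differed by 1.20 and 0.78 and Pim2 by 4.66 and 4.33. Pim1 rose by 0.73 ± 0.12 (adjusted p = 0.000691) in Ikaros-deficient cells, but the difference was 0.14 (adjusted p = 0.29) under that scaling, and it did not pass in control cells (0.72 ± 0.39, adjusted p = 0.139). Socs1 fell by 1.15 ± 0.41 (adjusted p = 0.0314) in Ikaros-deficient cells, but the difference was -0.52 ± 0.45 (adjusted p = 0.344) without Ikaros-deficient naive replicate 1. That call was also lost without CpG replicate 1 or 2 of the Ikaros-deficient group and without the TPM filter, at adjusted p = 0.0609 to 0.0746. Socs3 did not pass in either genotype, at -0.16 ± 0.33 (adjusted p = 0.668) in Ikaros-deficient and 0.53 ± 0.36 (adjusted p = 0.221) in control cells. In Ikaros-deficient cells the Socs3 value turned on the naive libraries: it was 0.56 ± 0.10 (adjusted p = 0.00416) without naive replicate 1 and -0.88 ± 0.10 (adjusted p = 0.000782) without naive replicate 2, and under median-ratio scaling it was -0.75 ± 0.29 (adjusted p = 0.0463). In control cells both Socs3 (0.77 ± 0.26, adjusted p = 0.0414) and Pim1 (0.96 ± 0.33, adjusted p = 0.0443) passed without CpG control replicate 2. The difference of the CpG response between the genotypes was called for 0 of 6 genes tested, against 2.54% of 11081 genes, 2.17% higher and 0.37% lower, that is 241 and 41 genes, or 168 and 62 after median-ratio scaling. An unadjusted p under 0.05 was given by limma for Pim2 (0.47 ± 0.19, adjusted p = 0.214) and Pim3 (0.55 ± 0.16, adjusted p = 0.107), and voom gave 1 unadjusted p under 0.05 and 0 calls.

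Ordered by mean level over the 8 groups, Pim1 was highest in the CpG groups, followed by the 3 naive groups, anergic cells, control HEL-exposed cells and Ikaros-deficient HEL-exposed cells. Neighbours in this order overlapped except between Ikaros-deficient CpG and series 57 naive cells, between naive and anergic cells, and between the 2 HEL genotypes. Pim2 formed 3 levels that did not overlap, CpG, then HEL-exposed and anergic cells together, then naive cells, among which the Ikaros-deficient group was lowest without overlap. Pim3 ran from Ikaros-deficient CpG through control CpG and anergic to series 57 naive cells, with no overlap between these neighbours. The control HEL-exposed cells, at 21.5 to 32.4 TPM, spanned the series 57 naive values, and Pim3 was lowest, without overlap with any group, in Ikaros-deficient HEL-exposed cells. Socs2 separated only the Ikaros-deficient HEL-exposed group, and for Cish and Socs1 every pair of neighbours overlapped. For Socs3 the only step without overlap was between the control naive cells of series 36 (mean 40.7 TPM) and Ikaros-deficient HEL-exposed cells (mean 29.1 TPM).

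Other genes of the pathway were read from lists chosen with earlier results of these data known. Their counts stand against 12.9% of all genes called higher and 24.1% lower after HEL, and 9.14% and 5.8% after CpG. Of 16 cytokine receptor genes, 14 were tested after HEL, where 5 were higher and 3 lower in Ikaros-deficient cells, with a list median of 0.01 beside -0.08 for all genes. After CpG, 2 were higher and 2 lower of 15, with a median of -0.23 beside 0.02. Il6st, the shared signal-transducing receptor of the interleukin-6 family, averaged 9.57 ± 0.92 TPM in Ikaros-deficient and 4.38 ± 0.61 TPM in control HEL-exposed cells, and 17.1 ± 0.96 and 9.12 ± 0.85 TPM after CpG. It rose in both, by 0.98 ± 0.09 and 0.84 ± 0.09 on the log2 scale. Csf2rb, the common beta chain of the receptors for interleukin-3, interleukin-5 and GM-CSF, rose by 1.78 ± 0.11 after HEL, but the files mark it as overlapping another gene model and a close paralog can share its reads. Il2ra, the alpha chain of the interleukin-2 receptor, rose by 0.77 ± 0.13 after HEL, to 2.06 ± 0.53 TPM in Ikaros-deficient cells, against 0.782 ± 0.17 TPM in controls. Il10rb (-0.49 ± 0.07), Il21r (-0.35 ± 0.06) and Il4ra (-0.29 ± 0.05) fell after HEL. After CpG, Il7r rose by 1.22 ± 0.17, and Il2rg, the common gamma chain, and Il21r fell by 0.70 ± 0.12 and 0.43 ± 0.07. Il7r was at 0.533 ± 0.24 TPM in the controls there. Like Il2ra after HEL, Il7r passed the filter of 1 TPM mainly through the Ikaros-deficient libraries, where it is high. These genes carry no weight in the receptor counts.

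Of the 4 JAK kinases, Jak2 rose (0.34 ± 0.10) and Jak1 fell (-0.36 ± 0.08, marked as overlapping) after HEL, and 0 of 4 were called after CpG, where limma and voom gave 0 with an unadjusted p under 0.05. Of the 7 STAT genes, 0 were higher and 2 lower after HEL, and 0 higher and 1 lower after CpG. Stat4, which transmits interleukin-12 and type I interferon signals, was at 14.7 ± 0.78 TPM in Ikaros-deficient and 32.1 ± 2.8 TPM in control HEL-exposed cells, and at 5.94 ± 0.97 and 13.2 ± 2.7 TPM after CpG. Stat5a, Stat5b and Stat3, named after their values were seen as the factors nearest to these genes, passed in neither with limma, but Stat3 was lower after CpG with voom (-0.39, adjusted p = 0.049). The 14 other inhibitors were the remaining SOCS genes, PIAS proteins, phosphatases, the adaptor Sh2b3, and Usp18, which is also among the interferon-stimulated genes. Of these, 0 were higher and 3 lower after HEL (Pias3, Pias4 and Socs4, at -0.27, -0.25 and -0.28, Pias3 being marked as overlapping). After CpG 0 of 14 were called, where 2 had an unadjusted p under 0.05 in limma and 4 in voom, which also called 0. Of the 4 other SOCS genes, Socs4 to Socs7, 0 were thus called higher after HEL, but under median-ratio scaling Socs7, singled out after its value was seen, was (0.28, adjusted p = 0.00693) and Socs4 no longer passed (-0.21, adjusted p = 0.0772). Of 6 elongin-cullin partners of the SOCS box, 1 was lower after HEL, Tceb2 (-0.20 ± 0.05), which with Stat6 also lost its call under that scaling. Tceb2 and Stat6 are both marked as overlapping. After CpG 0 of 6 were called, with 2 at an unadjusted p under 0.05 in limma and in voom, which also called 0.

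**Figure D4:**
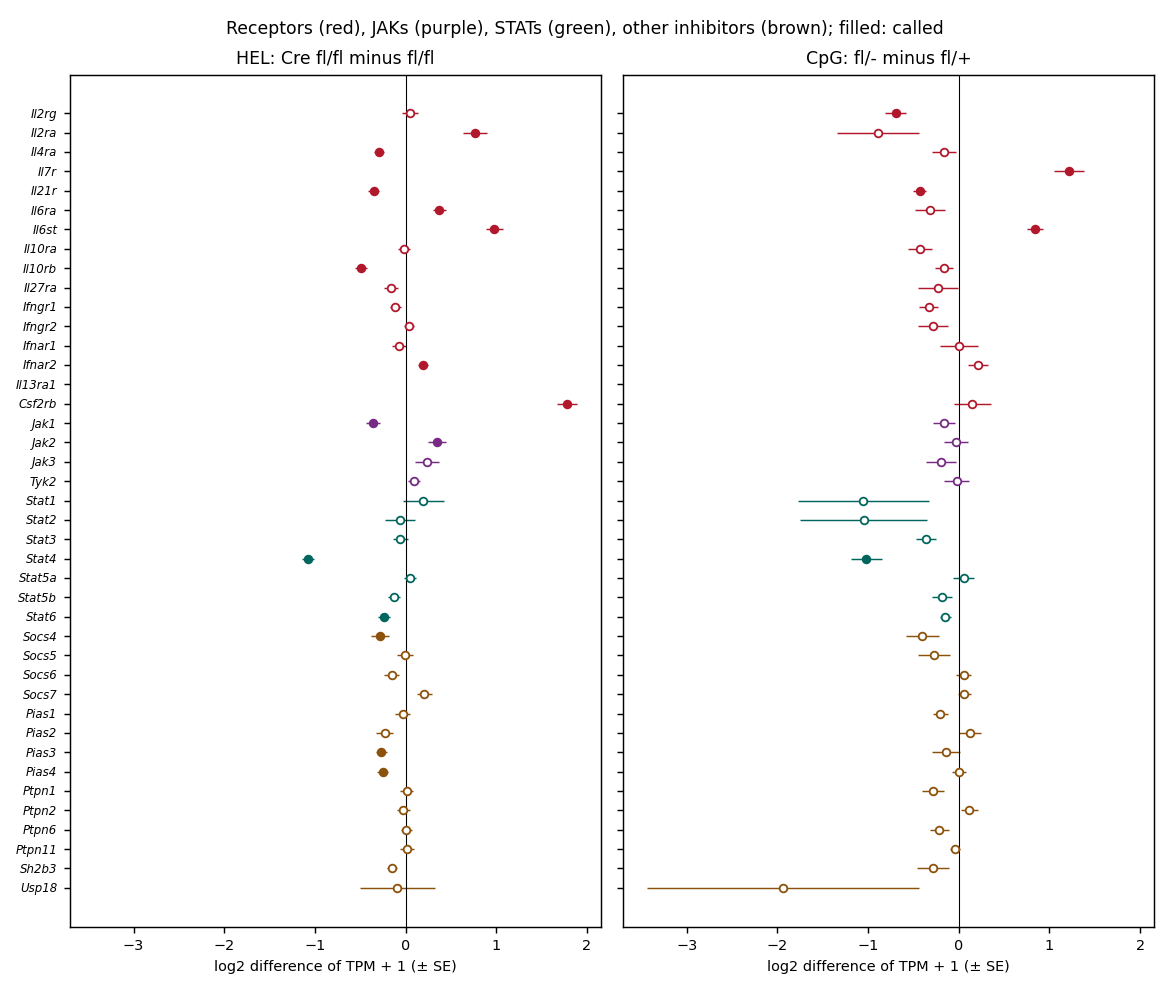
Log2 differences of TPM + 1 with standard errors for cytokine receptors, JAK kinases, STAT factors and other inhibitors, filled where called, after HEL on the left and after CpG on the right. Il6st is higher in the Ikaros-deficient cells in both panels (0.98 and 0.84) and Stat4 is lower in both (-1.08 and -1.02).

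Of 12 tested genes known as STAT5 or STAT3 targets, 3 were higher and 4 lower after HEL, against 12.9% and 24.1% of all genes, with a list median of -0.04. After CpG 3 were higher and 2 lower, against 9.14% and 5.8%, with a median of 0.04. Ccnd1, which encodes cyclin D1, rose in both, by 1.06 ± 0.10 and 0.76 ± 0.17. It was at 3.07 ± 0.37 TPM in Ikaros-deficient and 0.946 ± 0.14 TPM in control HEL-exposed cells, and at 1.64 ± 0.43 and 0.567 ± 0.27 TPM after CpG. Its control means were under 1 TPM, as was that of Il2ra, another of the higher genes after HEL. Both genes passed the filter mainly through the Ikaros-deficient libraries and carry no weight in these counts. Bcl2, the survival gene, fell in both, by 0.45 ± 0.11 after HEL and 0.58 ± 0.08 after CpG, as did Bcl6, the germinal centre repressor, by 0.59 ± 0.12 and 0.53 ± 0.14. Myc, a transcription factor with which PIM kinases cooperate in mouse lymphoma, had opposite calls in the 2 experiments. It was at 28.5 ± 7.0 TPM in Ikaros-deficient and 49.7 ± 8.7 TPM in control HEL-exposed cells, and at 290.4 ± 30 and 206 ± 23 TPM after CpG, with log2 differences of -0.79 ± 0.15 and 0.49 ± 0.10. Pim3 had the same pair of directions.

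Of the genes for PIM substrates and translation factors, 11 were tested after HEL, where 2 were higher and 2 lower, and 12 after CpG, where 1 was higher and 1 lower. The 4 calls among 11 after HEL and 2 among 12 after CpG are near the shares of all genes called, 36.9% and 14.9%. Foxo1, a transcription factor that PIM kinases inhibit, fell by 0.30 ± 0.08 after HEL and 0.60 ± 0.10 after CpG. Cdkn1b, which encodes the cell cycle inhibitor p27, fell by 0.35 ± 0.08 after HEL. Bad, a death-promoting protein that PIM kinases phosphorylate, rose by 0.27 ± 0.08 and 0.44 ± 0.11, and is marked as overlapping. Eif4b, a translation factor, rose by 0.21 ± 0.07 after HEL.

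Patterns over the 28 libraries were compared by Pearson's r of log2(TPM + 1) with 7281 other genes, as a description, since all genes share the libraries, their depth and their groups. The genes most like Pim1 were Ndufs7 (r = 0.935) and Ears2 (r = 0.934). For Pim2 they were Dap3 (r = 0.987) and Fam46c (r = 0.985), and for Pim3 Nln (r = 0.979) and Ppan (r = 0.978). Socs1 was most like Ifi44 (r = 0.843) and Oas1a (r = 0.807), and Socs3 most like Flt3 (r = 0.882) and Pmf1 (r = 0.866). Cish and Socs2 were too low to be compared in this way.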

How the data were processed

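Series-wide processing notes of the submitters name mm9 as the genome build and list deepTools 3.0.1, SAMtools 1.4, featureCounts 1.5.0, Bowtie and TopHat 1.4.1. What each tool did, the gene models and the strandedness are not given in the sources used here. RNA was prepared with a column kit and selected for polyadenylation on beads, per the labels' protocols. The authors deposited TPM, in 1 file for each of 28 RNA-seq samples of 40 in all. ATAC-seq and ChIP-seq samples are not used here. Steps in the TPM values gave whole reads (tolerance 0.01) for 17368 of the 17368 genes above 0 in more than 1 library, and these reads served 1 alternative. The 1475 genes above 0 in 1 library were not recovered.

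Each comparison was a separate limma fit (version 3.58.1, R 4.3.3) to log2(TPM + 1), with its mean-variance trend, two-sided tests and Benjamini-Hochberg adjustment over all genes tested. A gene was tested if its TPM reached 1 in a number of libraries no lower than the size of the smaller group. The text takes its adjusted p-values from these fits. The fits were also run on simulated data, with a fixed spread and without genes of few reads. That run does not show how they perform for genes of few reads or with widely spread replicates. Alternatives were a pseudocount of 0.1, no filter, median-ratio scaling, voom on recovered reads, leaving out each library, a library-number block and its parts for CpG, and other controls.

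The members and the gene lists were chosen with earlier results of these data known. The 7 members and Ikzf1 were named throughout, with the 2 genes most like each member with a mean TPM of at least 5, and from each pathway list up to 3 called genes per direction after HEL and after CpG. Promoter sequences are from RefSeq tables of another build than the TPM values.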

Additional observations from a re-analysis of the deposited data

Results flagged for a closer look

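In 28 groups of at least 4 libraries, 2 values lay far from the others by Dixon's test, which chance does in about 1 of 20 groups. Pim2 was at 114 TPM in Ikaros-deficient HEL-exposed replicate 4, above the 83.2 to 91.5 TPM of the other 4. Socs1 was at 11.4 TPM in HEL control replicate 5, below the 48.8 to 53.0 TPM of the other 4.

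The effect of Ikaros loss differed between the CpG and HEL experiments for 3 genes, by an interaction test in limma. The stimulus cannot be told apart here from control and Ikaros-deficient genotype, library series, or exposure in the mouse or in vitro. The log2 effect after CpG minus that after HEL was 1.56 for Pim1, 1.20 for Pim3 and -0.88 for Socs2. Socs2 entered this test through the Ikaros-deficient HEL-exposed libraries alone, the group where it is high, and was under the TPM filter after CpG.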

How the results depend on the processing

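Of 835 values of the 7 genes under alternatives, 750 kept their direction and their side of the threshold, 38 lost and 14 gained a call, and 33 changed sign, none of these with a call on both sides, although Socs3 in the CpG against naive comparison without Ikaros was called in opposite directions without 1 or the other naive library. With voom, Pim2 after HEL was at 0.0049. Loss of Ikaros after CpG gave 1551 called genes over all 8 libraries, 272 within the first 4 library numbers and 2388 within the last 4, and 909 to 1907 without any 1 library. There, Pim1 was at -0.026 with median-ratio scaling, -0.022 with voom, -0.41 within the last 4 numbers and -0.23 to 0.25 without 1 library, and within the first 4 numbers Pim2 was at -0.040 and Socs1 at 0.21. In naive cells, loss of Ikaros gave 2 calls, 0 with a pseudocount of 0.1, 0 with no filter, 17 with median-ratio scaling, 58 with voom and 0 without any 1 library, and without 1 library Pim1 ran from -0.33 to 0.34 and Cish from -0.16 to 0.50. Anergic against naive cells gave 775 calls and 323 to 1153 without 1 library, with Socs1 at -0.23 to 0.064. Anergic against HEL-exposed cells gave 4425 calls, 2505 with median-ratio scaling, 2584 with voom and 2800 to 5292 without 1 library. For CpG against naive cells, Socs1 in controls was at -0.24 with median-ratio scaling, -0.27 with voom and -0.25 to 0.57 without 1 library, and Socs3 in Ikaros-deficient cells at -0.88 to 0.56. The CpG minus HEL difference of Socs3 ran from -0.13 to 0.38. The difference of the CpG response gave 282 calls, 119 with voom and 124 to 459 without 1 library, with Pim1 at -0.13 with median-ratio scaling, -0.13 with voom and -0.33 to 0.33 without 1 library, Cish at -0.64 to 0.012 and Socs3 at -1.41 to 0.028. The cause of these changes was not tested, apart from the fewer libraries of the reduced fits. No paired analysis was possible because the labels give no replicate numbers and those used here follow accession order; the library-number block for CpG gave 2221 calls.

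Groups of 2 to 5 libraries limit the precision, most of all for naive cells. Cish and Socs2 rest on 1 to 60 reads per library. HEL controls lack Cre, and CpG libraries share no library series with naive cells.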
